A study of Mus musculus with 6 samples.

Results

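Transforming growth factor beta (TGF-beta) restrains CD8 T cells in tumors and is known for inducing tissue-residence genes and limiting effector functions. The ligand binds a receptor pair, TGFBR2 and TGFBR1, which phosphorylates SMAD2 and SMAD3, and these enter the nucleus with SMAD4 to regulate target genes. The pathway is dampened by its own feedback genes: the inhibitory SMAD7, the nuclear corepressors SKI, SKIL (SnoN) and TGIF1, and the membrane proteins PMEPA1 and LDLRAD4, which sequester receptor SMADs. Chromatin at 10 genes of this pathway, Tgfbr1, Tgfbr2, Smad2, Smad3, Smad7, Ski, Skil, Tgif1, Pmepa1 and Ldlrad4, is described here in tumor-specific CD8 T cells. Their regions were those overlapping a gene body by at least 1 base, or intergenic regions with the gene as nearest protein-coding gene within 100 kb. This gave 164 of the 74686 regions in the deposited count table, 99 inside a gene body and 65 intergenic, and no low-count filter removed any of them.

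ATAC-seq libraries were made from OT1 CD8 T cells, transgenic for a T cell receptor against ovalbumin. The cells had infiltrated B16-OVA-GP61 melanomas of mice, a tumor line named for ovalbumin and the viral epitope GP61. The OT1 cells were purified by sorting on CD8 and CD45.1, an allele that tells transferred cells from those of the host. In 3 libraries SMARTA CD4 T cells, transgenic for a receptor against GP61, had also been given, and in the other 3 libraries they had not. Tumor line, OT1 transfer and sort were common to both groups, and the labels state neither age nor strain of the mice. Open chromatin was measured by ATAC-seq, in which a transposase cuts accessible DNA. The 3 libraries with SMARTA cells held 16595779 to 27182809 counts in the regions and the 3 without held 19149455 to 26218921. Replicate 2 with SMARTA cells stood apart from its group on the second principal component (a score of 89.1, against -72.1 and -36.6 for the other libraries with SMARTA cells), so counts of called regions are given with and without it. The regions of 8 CD8 T cell marker genes summed to 1414 to 1684 CPM, counts relative to the size of the library, with SMARTA cells and 1534 to 1670 without. Among these 91 regions 2 opened (2.2%) and 8 closed (8.79%), with 3 closed of 13 at Cd8a. The Cd8a regions summed to 188.1, 119.8 and 159.4 CPM with SMARTA cells and 213.8, 194.5 and 195.9 without (edgeR adjusted p = 0.106). The regions of 4 CD4 T cell markers summed to 242.8 to 259.3 CPM with SMARTA cells and 193.4 to 233.0 without, groups that did not overlap. The Cd40lg and Zbtb7b sums were apart but did not pass (edgeR adjusted p = 0.143 and 0.575), and the Foxp3 sums overlapped. The Cd4 sums also overlapped, at 32.6, 15.8 and 30.8 CPM with SMARTA cells and 26.4, 23.7 and 24.7 without (edgeR adjusted p = 0.95). How often such sums are apart over all genes is not given here. Of the CD4 marker regions, 4 of 14 at Cd40lg opened and 1 closed, and 1 of 3 at Cd4 closed. Neither the 5 Zbtb7b regions nor the single Foxp3 region were called. Without replicate 2 with SMARTA cells, 2 Cd40lg regions opened and 0 closed, 1 Cd4 region opened and 1 closed, and 2 Cd8a regions closed. Regions of B cell markers summed to 27.0 to 33.7 CPM with SMARTA cells and 34.0 to 45.4 without, groups that did not overlap either. No region lay at Ms4a1 or Cd79a. Regions of 5 melanoma markers summed to 283 to 313.8 CPM with SMARTA cells and 267 to 284.8 without, and the part of tumor, B cell or CD4 T cell DNA in the results below was not tested. Whether each replicate is a separate animal is not stated, and the p-values then cover only library-to-library spread, which may be technical. In bulk libraries a change in the share of cells with an open region and a change in each cell cannot be told apart.

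With SMARTA cells, regions of the feedback genes Pmepa1, Ldlrad4 and Ski and of Smad3 gained accessibility, while regions of Tgif1 lost it. A region was called opened or closed where edgeR's quasi-likelihood test gave a Benjamini-Hochberg adjusted p below 0.05 over all 74686 regions. Of the 164 regions, 23 opened (14.0%) and 11 closed (6.71%). Over all regions of the table, 4.68% opened and 10.4% closed. The median log2 fold over the 164 regions was 0.16, against 0.01 over all regions, and 102 of the 164 folds were positive. All 3 libraries with SMARTA cells lay above all 3 without in 43 regions (26.2%, against 15.7% of all regions) and below them in 21 regions (12.8%, against 18.5% of all regions). At the level of genes, 4 (Tgfbr1, Smad7, Ski and Pmepa1) held opened regions and no closed one, 3 (Tgfbr2, Smad2 and Tgif1) held closed regions and no opened one, Smad3 and Ldlrad4 held both, and Skil had no call.

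**Figure D1:**
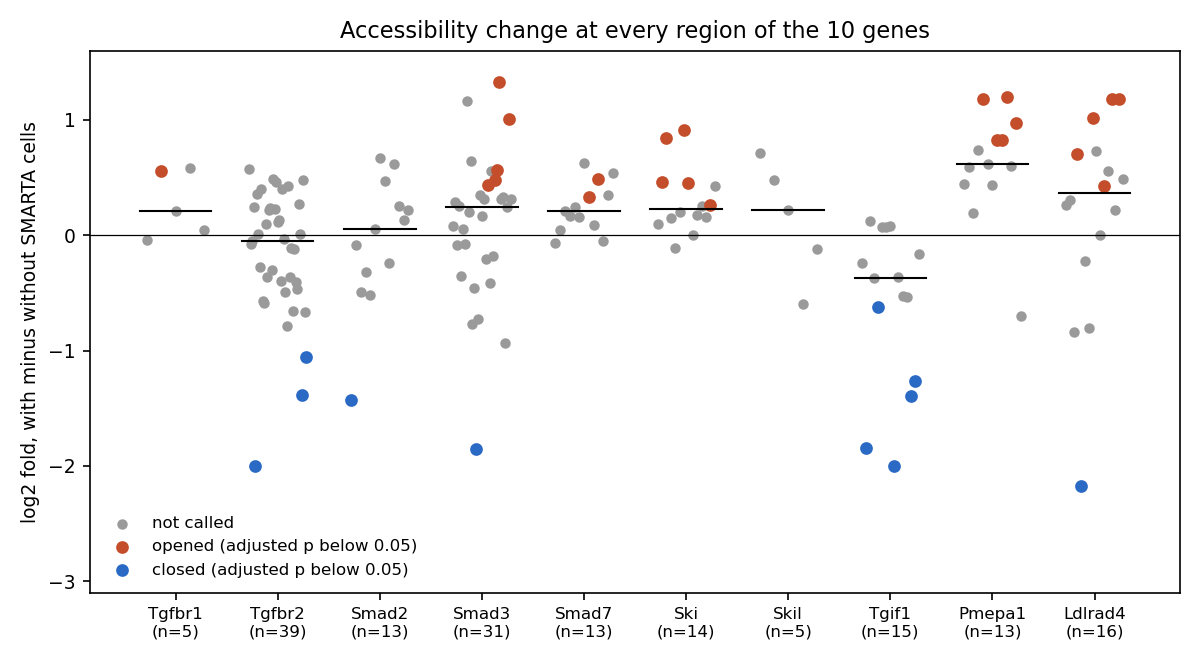
Each point is 1 region of the gene named on the horizontal axis, in genome order within the gene, and the vertical axis is its log2 fold, with minus without SMARTA cells, from the fit over all regions. Black bars are medians, which ranged from -0.37 at Tgif1 to 0.62 at Pmepa1, and colours mark the 23 opened and 11 closed regions.

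As over the whole table, opened regions were more accessible than closed ones and changed by less. The median of mean accessibility was 4.22 log2 CPM over the 23 opened regions and 1.27 over the 11 closed ones, against 3.53 over all opened and 1.54 over all closed regions of the table. Closures were larger, with a median log2 fold of -1.43 (range -2.18 to -0.63) and 10 of 11 at 2-fold or more, where all closed regions of the table had a median of -1.36. Openings had a median of 0.83 (range 0.26 to 1.33), and 7 of 23 reached 2-fold, where all opened regions had a median of 0.77. These medians cover only regions that passed the test, and a weakly accessible region needs a larger fold to pass. In all 23 opened regions each of the 3 peak lists with SMARTA cells held a peak, and in 19 so did each list without. Of the 11 closed regions, 9 held a peak in every list without SMARTA cells and 5 in no list with them. Of the 130 regions not called, 87 held a peak in every list with SMARTA cells, 79 in every list without and 10 in no list with them. Peaks and counts come from the same libraries, so the peaks are no separate support for the calls. Within 2 kb of a gene's outermost start (or of either gene boundary where no start was listed) lay 16 regions. Of these, 5 opened and 0 closed, and all 16 folds were positive. The share called among such regions of the whole table is not given here. Under loess scaling 3 of the folds (at Tgfbr2, Smad2 and Tgif1) turned negative. At the most accessible regions of Tgfbr1, Smad7, Skil and Ski they fell to 0.045, 0.045, 0.018 and 0.056, and Ski lost its call. The other opened ones, at Tgfbr1, Smad3 and Pmepa1, kept their calls.

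The number of calls depended on single libraries. Leaving out replicates 1, 2 and 3 with SMARTA cells in turn gave 17, 28 and 11 opened regions and 13, 13 and 4 closed ones. Leaving out replicates 1, 2 and 3 without SMARTA cells gave 9, 8 and 12 opened regions and 9, 5 and 7 closed ones. Over the whole table these settings moved the opened share to between 1.64% and 5.70% and the closed share to between 5.90% and 11.3%. A total of 5 opened regions (at Smad3, Ski, Pmepa1 and 2 at Ldlrad4) and 4 closed ones (2 at Tgif1, and 1 each at Tgfbr2 and Ldlrad4) passed in all 6 settings.

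Called regions covered a RefSeq start site at Tgif1 and lay against the start of Smad3, so the bases before these starts are shown. Each sequence is the 250 bases before a start on the gene's own strand, from RefSeq's GRCm38.p6 promoter windows, which listed 10 windows for 5 of the 10 genes (Tgfbr1, Tgfbr2, Smad3, Ski and Tgif1). Capitals mark the SMAD box CAGACA, a short form of the sequence that SMAD3 and SMAD4 bind, searched on both strands. The first window belongs to the single listed Smad3 start, and 207 of its bases lie in an opened region. The second precedes an internal Tgif1 start and lies wholly in a closed region. The third precedes the outermost Tgif1 start, upstream of the second, in a region that was not called.
Smad3, chr9:63757995-63758244, reverse strand, opened: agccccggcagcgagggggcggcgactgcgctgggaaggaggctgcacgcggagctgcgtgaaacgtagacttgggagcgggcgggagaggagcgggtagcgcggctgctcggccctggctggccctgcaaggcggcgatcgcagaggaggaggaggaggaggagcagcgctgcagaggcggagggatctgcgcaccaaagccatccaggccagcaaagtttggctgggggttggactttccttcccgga
Tgif1 internal start, chr17:70849791-70850040, reverse strand, closed: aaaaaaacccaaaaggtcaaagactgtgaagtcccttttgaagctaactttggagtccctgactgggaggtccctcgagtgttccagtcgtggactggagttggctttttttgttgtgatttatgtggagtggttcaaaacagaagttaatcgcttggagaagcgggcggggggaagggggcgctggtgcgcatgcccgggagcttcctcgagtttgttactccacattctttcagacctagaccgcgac
Tgif1 outermost start, chr17:70853533-70853782, reverse strand, not called: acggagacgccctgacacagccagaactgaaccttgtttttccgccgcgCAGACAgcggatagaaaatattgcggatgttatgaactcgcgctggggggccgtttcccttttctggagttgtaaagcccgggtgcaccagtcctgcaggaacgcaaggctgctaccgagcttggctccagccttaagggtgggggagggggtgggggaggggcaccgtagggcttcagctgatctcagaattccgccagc
The G and C content was 69.2% in the Smad3 window, 51.2% in the window of the internal Tgif1 start and 59.6% in that of the outermost one. The SMAD box occurs once in the third window and in neither of the others shown, and 17.1% of all 32851 listed windows hold it. Among the listed windows not shown, that of another internal Tgif1 start (70851734) and that of an internal Tgfbr1 start (47386216) also hold it. No region overlaps either of those windows. The AP-1 sequence TGANTCA (in 6.75% of all windows) and the RUNX sequence TGTGGT (in 14.0%) occur in none of the 3 windows shown.

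The receptor genes differed. Tgfbr1, which encodes the type I receptor kinase, had 5 regions, of which 1 opened. That region lies 1.40 kb before the start (chr4:47351423-47351823) and measured 4.41, 4.66 and 4.43 log2 CPM with SMARTA cells, against 3.72, 3.97 and 4.12 without. The groups did not overlap, with a log2 fold of 0.56 ± 0.16 (SE, edgeR adjusted p = 0.0416), but leaving out any 1 library ended the call (adjusted p from 0.055 to 0.115). The region on the start itself (chr4:47352971-47353371) was the most accessible one and was not called, at 6.58 ± 0.14 log2 CPM with SMARTA cells and 6.38 ± 0.06 without (SD, n = 3 each; edgeR adjusted p = 0.104).

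Tgfbr2 encodes the type II receptor that binds the ligand, and it had the most regions of the 10 genes, 39, of which 3 closed and 0 opened, a closed share below the 10.4% of all regions, and 18 of its 39 folds were positive. The strongest closed region lies inside the gene body, 83.9 kb from the start and near the other end (chr9:116091086-116091486). It measured 1.97, 1.45 and 1.59 log2 CPM with SMARTA cells, against 3.22, 3.89 and 3.77 without, and every library with SMARTA cells was lower. The log2 fold was -2.00 ± 0.25, a 3.99-fold lower accessibility (edgeR adjusted p = 0.000749), and it passed in all 6 settings with 1 library left out. The other two closed regions lie upstream, 91.3 kb from the gene (0.33, 0.23 and -0.32 log2 CPM with SMARTA cells against 0.62, 1.61 and 1.69 without, -1.38 ± 0.35, edgeR adjusted p = 0.024) and 99.1 kb from it. This last one measured 0.28, 0.56 and 0.41 log2 CPM with SMARTA cells and 1.40, 1.61 and 1.22 without (-1.05 ± 0.24, edgeR adjusted p = 0.0147), and it lies closest to the 100 kb limit. Under loess scaling the region at 91.3 kb had a log2 fold of -1.23 and lost its call (edgeR adjusted p = 0.0532). Just outside that limit, a region 100.8 kb from Pmepa1 had a log2 fold of 0.74, at an edgeR adjusted p of 0.0211 that a wider limit would have counted as opened, and one 108.6 kb from Tgfbr2 had 0.22. The most accessible Tgfbr2 region spans the start (chr9:116175063-116175463) and was not called, at 6.27, 5.98 and 6.22 log2 CPM with SMARTA cells against 5.90, 6.10 and 6.14 without, groups that overlapped. A weaker region just inside the start had a log2 fold of 0.46 ± 0.21 and was not called (edgeR adjusted p = 0.165). Leaving out replicates 1, 2 and 3 with SMARTA cells gave 6, 3 and 1 closed Tgfbr2 regions, and leaving out those without gave 3, 1 and 2. Without replicate 2 with SMARTA cells, 2 Tgfbr2 regions also opened.

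**Figure D2:**
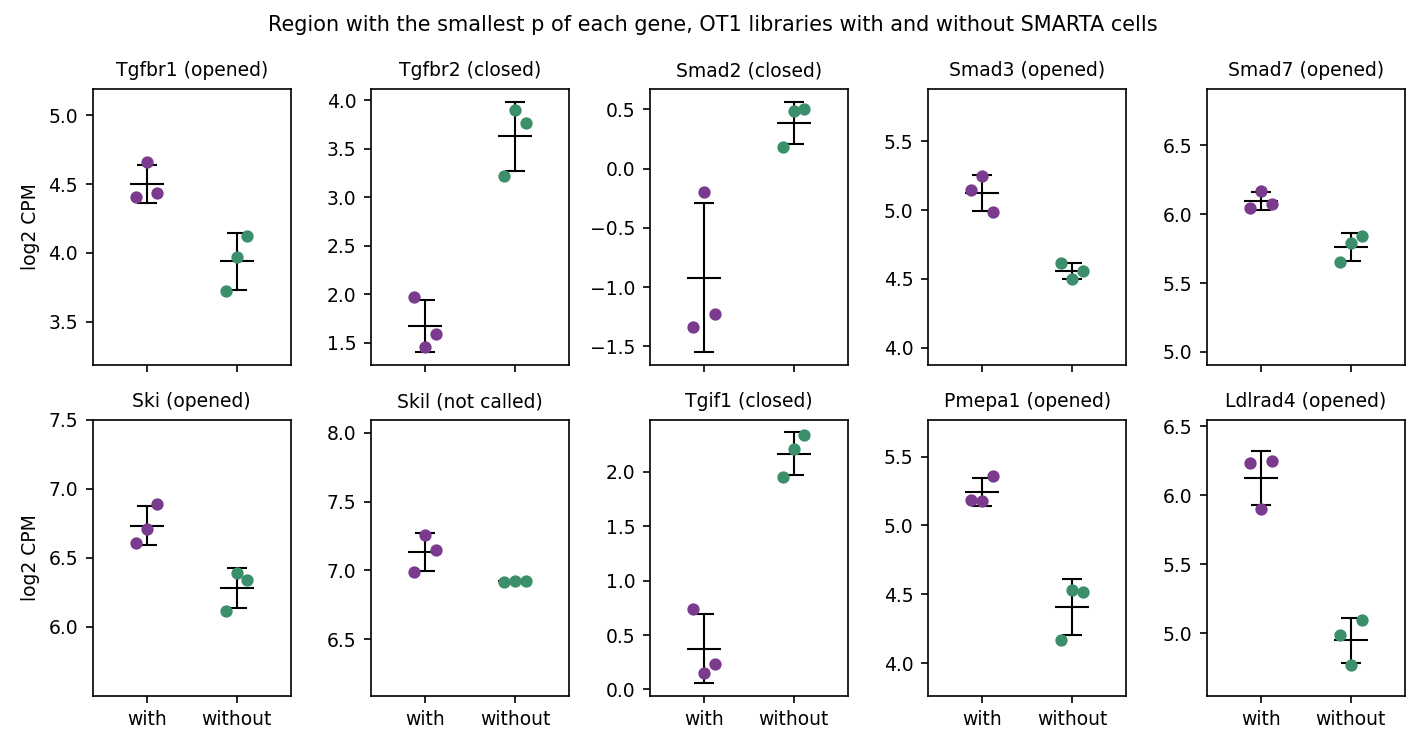
Accessibility in log2 CPM (vertical axis, at least 2 units in each panel) of the region with the smallest p at each gene, in the 3 OT1 libraries with SMARTA cells and the 3 without. Points are libraries, and bars are means with SD. The groups do not overlap in any panel, which follows largely from choosing the smallest p. Over all regions, 15.7% lay apart upward and 18.5% downward. The Skil region did not pass the test.

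Smad2 and Smad3 encode the receptor-activated SMADs, and Smad3 changed at more places. Of 13 Smad2 regions 1 closed, a weakly accessible region 45.7 kb from the gene, at -1.34, -0.20 and -1.23 log2 CPM with SMARTA cells against 0.18, 0.48 and 0.50 without. The call (-1.43 ± 0.41, edgeR adjusted p = 0.0422) was lost in 5 of the 6 settings with 1 library left out and held without replicate 2 with SMARTA cells. Under loess scaling the fold was -0.58 and the call was lost (edgeR adjusted p = 0.329). The most accessible Smad2 region, centred 0.592 kb inside a gene boundary, measured 6.97 ± 0.04 log2 CPM with SMARTA cells and 6.91 ± 0.04 without (SD, n = 3 each) and was not called (edgeR adjusted p = 0.526). Its log2 fold was 0.06 ± 0.05 (SE), and its groups overlapped.

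Of 31 Smad3 regions 5 opened and 1 closed. Its most accessible region, the one shown above that ends 44 bases before the start (chr9:63758038-63758438), measured 5.59, 5.95 and 5.93 log2 CPM with SMARTA cells, against 5.21, 5.46 and 5.36 without. It opened by 0.48 ± 0.11 (edgeR adjusted p = 0.0171), and the groups did not overlap. A second region, 1.02 kb before the start (chr9:63759017-63759417), measured 5.14, 5.25 and 4.98 log2 CPM with SMARTA cells and 4.62, 4.50 and 4.56 without (0.57 ± 0.12, edgeR adjusted p = 0.0097), and passed in all 6 settings with 1 library left out. The largest gain lay 18.8 kb upstream (chr9:63776749-63777149), at 3.66, 3.63 and 4.11 log2 CPM with SMARTA cells against 1.65, 2.79 and 2.77 without, a 2.52-fold higher accessibility (1.33 ± 0.30, edgeR adjusted p = 0.0139). A region 56.7 kb upstream (1.01 ± 0.26) and one 17.1 kb inside the gene (0.43 ± 0.13) also opened.

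The closed Smad3 region lies 39.4 kb inside the gene (chr9:63718159-63718559). It measured 2.37, 0.78 and 1.27 log2 CPM with SMARTA cells and 2.83, 3.78 and 3.59 without (-1.85 ± 0.39, edgeR adjusted p = 0.0107), and 0 of the 3 peak lists with SMARTA cells held a peak there, against 3 of 3 without. So the gene lost an internal region while the regions at its start gained. The 5 opened Smad3 regions became 4, 8 and 1 when replicates 1, 2 and 3 with SMARTA cells were left out in turn, and 2, 4 and 2 when those without were. The closed region lost its call without replicate 3 with SMARTA cells, and without replicate 2 with them 2 regions closed.

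Smad7, the inhibitory SMAD that TGF-beta itself induces, had 13 regions, of which 2 opened and 0 closed. Both lie inside the gene and had small gains with little spread. One (chromosome 18, 75377436 to 75377836) measured 6.04, 6.17 and 6.07 log2 CPM with SMARTA cells against 5.65, 5.79 and 5.84 without (0.33 ± 0.08, edgeR adjusted p = 0.0189), and under loess scaling it gained 0.21 and lost the call (adjusted p = 0.0505). The other (75387383 to 75387783) measured 4.93 ± 0.09 log2 CPM with SMARTA cells and 4.44 ± 0.10 without (SD, n = 3 each; 0.49 ± 0.12, edgeR adjusted p = 0.0234). The most accessible Smad7 region, on a gene boundary, measured 6.51, 6.61 and 6.69 log2 CPM with SMARTA cells and 6.41, 6.39 and 6.41 without, groups that did not overlap, but it missed the threshold (0.21 ± 0.06, edgeR adjusted p = 0.0559), and under loess scaling its log2 fold was 0.045 (adjusted p = 0.678). Opened Smad7 regions numbered 3, 2 and 1 without replicates 1, 2 and 3 with SMARTA cells, and 0, 0 and 1 without those of the other group.

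Among the corepressors, Ski held opened regions and Tgif1 closed ones, though the summed counts of neither gene passed the test given below. Ski, which binds SMADs and blocks transcription of their targets, had 5 opened and 0 closed of 14 regions, and 12 of its 14 folds were positive. The strongest (chr4:155200752-155201152), 21.4 kb inside the gene, measured 6.61, 6.71 and 6.89 log2 CPM with SMARTA cells and 6.11, 6.39 and 6.34 without (0.45 ± 0.09, edgeR adjusted p = 0.00866), and it passed in all 6 settings with 1 library left out. A neighbour 24.4 kb inside the gene opened 1.88-fold (0.91 ± 0.23, edgeR adjusted p = 0.0232), and regions 53.4 and 59.8 kb inside the gene opened by 0.84 ± 0.22 and 0.46 ± 0.11. The most accessible Ski region, 0.57 kb before the start (chr4:155223105-155223505), opened by 0.26 ± 0.08, at 7.22, 7.39 and 7.05 log2 CPM with SMARTA cells against 6.95, 7.01 and 6.95 without. Its edgeR adjusted p of 0.0491 was the highest among the called regions, and under loess scaling the log2 fold was 0.056 and the call was lost (adjusted p = 0.567). A region just inside the start was not called (0.16 ± 0.10, edgeR adjusted p = 0.342). Without replicates 1, 2 and 3 with SMARTA cells 3, 4 and 3 Ski regions opened, and without those of the other group 2, 1 and 3.

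Skil, which encodes the SKI-related corepressor SnoN, had 5 regions and 0 calls by edgeR, with 1 region opened under loess scaling, with a replicate block, and without replicate 1 with SMARTA cells. Its most accessible region, next to a gene boundary (chr3:31094636-31095036), measured 6.99, 7.26 and 7.15 log2 CPM with SMARTA cells and 6.92, 6.92 and 6.93 without. The groups did not overlap, and the region missed the threshold (0.22 ± 0.07, edgeR adjusted p = 0.0608). Under loess scaling its log2 fold was 0.018 (adjusted p = 0.847), so the Skil region opened under that scaling is another one.

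Tgif1 encodes a homeodomain corepressor that binds activated SMADs, and 5 of its 15 regions closed and 0 opened, with a median log2 fold of -0.37. The region 16.4 kb upstream of the gene (chr17:70869909-70870309) fell to -0.07, 0.73 and -0.54 log2 CPM with SMARTA cells, against 2.11, 2.00 and 1.87 without, a 4.01-fold lower accessibility (-2.00 ± 0.31, edgeR adjusted p = 0.00227). The peak lists held a peak there in 0 of 3 libraries with SMARTA cells and 3 of 3 without. A region 3.88 kb beyond the other end of the gene (chr17:70839922-70840322) measured 0.74, 0.15 and 0.23 log2 CPM with SMARTA cells and 1.95, 2.21 and 2.34 without (-1.85 ± 0.24, edgeR adjusted p = 0.000917). Both passed in all 6 settings with 1 library left out. A pair of regions 33.1 and 34.3 kb upstream closed by -1.39 ± 0.34 and -1.26 ± 0.33, and there replicate 2 with SMARTA cells was the lowest library, at 1.42 and 0.97 log2 CPM.

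Of the regions over Tgif1 start sites, 1 over an internal start closed and another, over a different internal start, was not called. That uncalled region (chr17:70851163-70851563) measured 5.69 ± 0.19 log2 CPM with SMARTA cells and 5.63 ± 0.03 without (SD, n = 3 each). Its log2 fold was 0.07 ± 0.10 (SE, edgeR adjusted p = 0.686). The region over the internal start shown above (chr17:70849751-70850151) measured 4.32, 3.87 and 4.29 log2 CPM with SMARTA cells, against 4.55, 4.88 and 4.93 without, and closed by -0.63 ± 0.17 (edgeR adjusted p = 0.0297). The region over the outermost start (chr17:70853420-70853820) measured 4.33 ± 0.29 log2 CPM with SMARTA cells and 4.26 ± 0.26 without (SD, n = 3 each), overlapping groups with a log2 fold of 0.08 ± 0.19 (edgeR adjusted p = 0.827). The most accessible region of the gene, between these starts (chr17:70852243-70852643), was not called either (0.08 ± 0.11, edgeR adjusted p = 0.709). Differences between these start sites were not tested. Without replicates 1, 2 and 3 with SMARTA cells 5, 5 and 2 Tgif1 regions closed, and without those of the other group 3, 2 and 3. The closed region over the internal start kept its call in 3 of these 6 settings (adjusted p from 0.027 to 0.130).

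**Figure D3:**
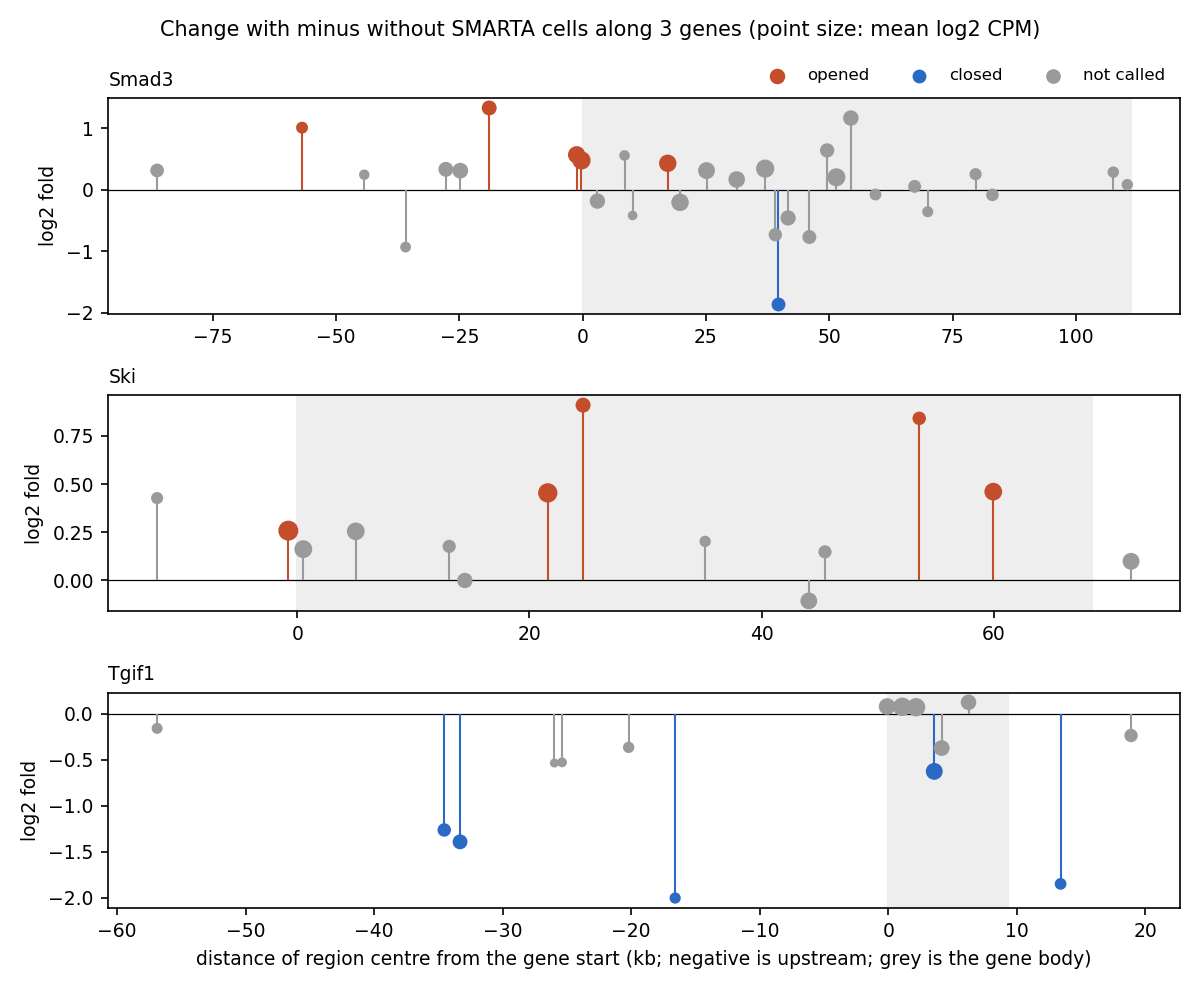
Log2 fold, with minus without SMARTA cells (vertical axis), of each region against the distance of its centre from the outermost listed gene start in kb (horizontal axis), for Smad3, Ski and Tgif1. Grey marks the gene body and point size the mean log2 CPM. At Smad3 the regions at the start opened and 1 internal region closed. Opened Ski regions lie inside the gene and just before its start. At Tgif1 4 closed regions lie outside the start cluster and 1 over an internal start.

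Pmepa1 and Ldlrad4 encode related membrane proteins that bind SMAD2 and SMAD3 and keep them from the receptor, and both opened. Pmepa1, a gene that TGF-beta induces, had 5 opened and 0 closed of 13 regions, 12 positive folds and the highest median log2 fold of the 10 genes, 0.62. Its strongest and most accessible region spans the upper gene boundary (chr2:173276385-173276785). It measured 5.18, 5.18 and 5.36 log2 CPM with SMARTA cells, against 4.17, 4.53 and 4.52 without, a 1.78-fold gain (0.83 ± 0.13, edgeR adjusted p = 0.00281) that passed in all 6 settings with 1 library left out. A weak region inside the gene (chr2:173254823-173255223) measured 0.69, 0.73 and 1.00 log2 CPM with SMARTA cells and 0.18, -0.76 and -0.34 without (1.18 ± 0.33, edgeR adjusted p = 0.0381), and peaks were listed there in 3 of 3 libraries with SMARTA cells and 0 of 3 without. Intergenic regions 29.6 and 72.7 kb away opened by 1.20 ± 0.34 and 0.97 ± 0.25, and a further internal one by 0.83 ± 0.21. In the first of these, replicate 2 with SMARTA cells (2.28 log2 CPM) lay within the range of the libraries without (1.99 to 2.39). Without replicates 1, 2 and 3 with SMARTA cells 3, 7 and 1 Pmepa1 regions opened, and without those of the other group 3, 1 and 2.

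Ldlrad4, the largest of the genes at 328.3 kb, had 5 opened and 1 closed of 16 regions. Its most accessible region (chromosome 18, 68227550 to 68227950), inside the gene, measured 6.24, 5.90 and 6.25 log2 CPM with SMARTA cells, against 4.99, 4.77 and 5.09 without. This 2.27-fold gain (1.18 ± 0.12, edgeR adjusted p = 0.00034) had the smallest p of all 164 regions and passed in all 6 settings with 1 library left out. A weak internal region (68203006 to 68203406) measured 1.56, 1.28 and 1.50 log2 CPM with SMARTA cells and 0.25, 0.17 and 0.54 without (1.18 ± 0.24, edgeR adjusted p = 0.0084), with peaks in 3 of 3 lists with SMARTA cells and 0 of 3 without. The remaining openings inside the gene were 1.02 ± 0.24, 0.70 ± 0.20 and 0.43 ± 0.11. The closed region (68009654 to 68010054) had the largest loss of the 164, at -0.07, 0.30 and -0.19 log2 CPM with SMARTA cells against 2.04, 1.84 and 2.34 without (-2.18 ± 0.25, edgeR adjusted p = 0.000541). Regions at the lower gene boundary were not called, with folds of 0.26 ± 0.19 and 0.31 ± 0.14 (edgeR adjusted p = 0.401 and 0.167). Without replicates 1, 2 and 3 with SMARTA cells 3, 5 and 4 Ldlrad4 regions opened and 1, 2 and 1 closed, and without those of the other group 2, 2 and 4 opened and 2, 1 and 1 closed.

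Counts summed over all regions of a gene were tested in the same way across 15962 genes, of which 1.97% were higher and 5.63% lower with SMARTA cells at an adjusted p of 0.05. Of the 10 genes, Pmepa1 and Ldlrad4 were higher and the others did not pass. Pmepa1 summed to 7.17, 6.96 and 7.34 log2 CPM with SMARTA cells and 6.39, 6.58 and 6.73 without (log2 fold 0.59 ± 0.11, edgeR adjusted p = 0.0129). Ldlrad4 summed to 7.68, 7.50 and 7.68 log2 CPM with SMARTA cells and 7.09, 7.10 and 7.36 without (0.44 ± 0.09, edgeR adjusted p = 0.019). Neither gene's groups overlapped, and how often gene sums are apart over all genes is not given here. The Pmepa1 call was lost without replicate 3 with SMARTA cells (adjusted p = 0.0576). The Ldlrad4 call was lost without that library (0.0853) and without replicate 1 (0.0735) or 2 (0.0831) of the group without SMARTA cells.

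The other sums differed less. Ski had the tightest libraries, at 8.75 ± 0.02 log2 CPM with SMARTA cells and 8.52 ± 0.02 without (SD, n = 3 each), and missed the threshold (0.23 ± 0.07, edgeR adjusted p = 0.0663), which it passed without replicate 2 with SMARTA cells (adjusted p = 0.0375). Tgif1 summed to 7.60, 7.18 and 7.55 log2 CPM with SMARTA cells and 7.60, 7.76 and 7.77 without (-0.25 ± 0.11, edgeR adjusted p = 0.195), and replicate 2 with SMARTA cells was the lowest. Without that library its log2 fold was -0.13. Tgfbr1 (0.20 ± 0.07), Smad3 (0.19 ± 0.10), Skil (0.14 ± 0.07) and Smad7 (0.13 ± 0.07) had positive folds that did not pass (edgeR adjusted p from 0.137 to 0.264). Smad2 (-0.02 ± 0.06) and Tgfbr2 (-0.07 ± 0.10) were nearest to 0.

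**Figure D4:**
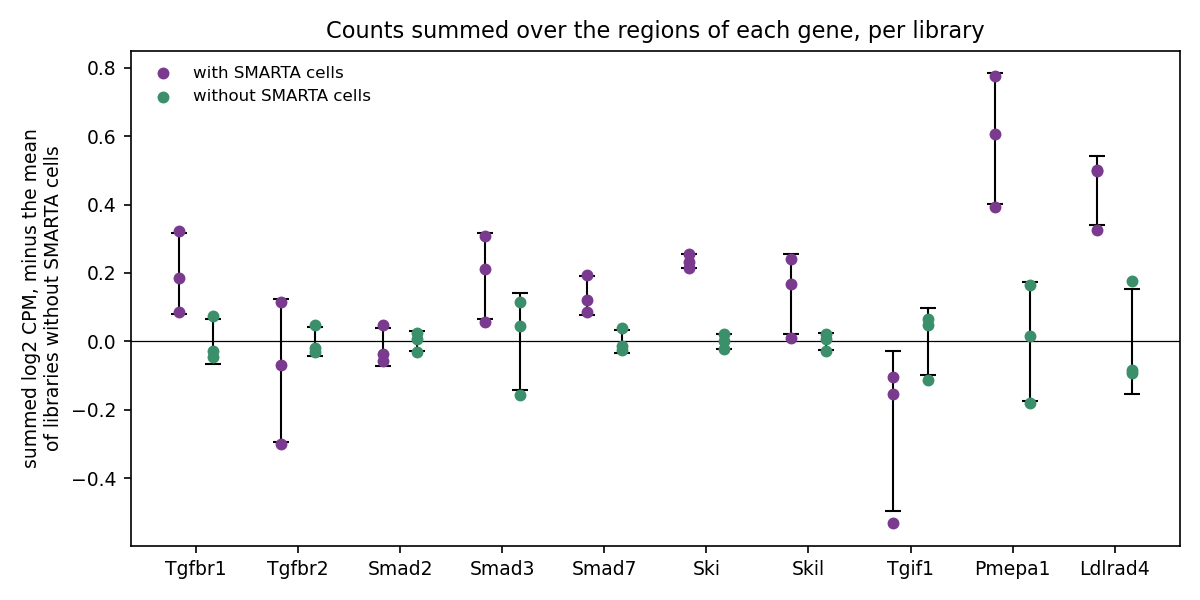
Counts summed over the regions of each gene, as log2 CPM per library minus the mean of the 3 libraries without SMARTA cells (vertical axis). Points are libraries and bars run from 1 SD below to 1 SD above the group mean. The groups are apart upward at Tgfbr1, Smad7, Ski, Pmepa1 and Ldlrad4, of which only Pmepa1 and Ldlrad4 passed the test. How often gene sums are apart over all genes is not given here.

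Smad3 and Ldlrad4 had the most called regions, 6 each. The genes whose sums followed Ldlrad4 most closely over the 6 libraries, among 1747 others with at least 10 regions, were Anxa6 (Pearson r = 0.993), Macroh2a1 (0.982), Serpini1 (0.980), Plekhm1 (0.980) and Cotl1 (0.976). Those closest to Smad3 were Glrp1 (0.974), Coro1c (0.970), Hopx (0.955), Hrh2 (0.950) and Dennd4c (0.950). These coefficients rest on 6 libraries that share depth and group, and describe only these libraries.

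In a list of 49 ligands, activators, receptors, SMAD partners, turnover enzymes and response genes, 12 of 335 regions opened (3.58%) and 28 closed (8.36%), with a median log2 fold of 0.03. The opened count of the list was 7 without replicate 3 with SMARTA cells, 21 without replicate 2 with them, and 3 without replicate 2 or 3 of the other group. Its closed count was 32 without replicate 2 with SMARTA cells and 19 without replicate 3 with them. Latency and activation genes had 9 closed (13%) and 1 opened (1.45%) of 69 regions, against 10.4% and 4.68% of all regions. Among them Itgav, an integrin chain that takes part in activating latent TGF-beta, had 5 closed and 0 opened of 23, the strongest by -1.69 ± 0.24 (chr2:83718422-83718822, edgeR adjusted p = 0.00171). Itgav closures numbered 7, 6 and 2 without replicates 1, 2 and 3 with SMARTA cells, and 4, 3 and 5 without those of the other group. Tgfb1, the ligand gene that T cells themselves express, had 1 closed of 6 regions, at 2.76, 2.14 and 3.07 log2 CPM with SMARTA cells against 3.76, 4.45 and 4.30 without (chr7:25707513-25707913, -1.50 ± 0.27, edgeR adjusted p = 0.00475).

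Smad4, the partner of both receptor SMADs, had 0 calls in 9 regions by edgeR (2 opened without replicate 2 with SMARTA cells). Nedd4l, a ubiquitin ligase that acts on activated SMADs, had 3 closed and 1 opened of 20, the strongest closed by -1.91 ± 0.21 (edgeR adjusted p = 0.000499). With 1 library left out, its opened region was called in the fit without replicate 2 with SMARTA cells and in none of the other 5. Response genes were mixed, with 5 opened (4.39%) and 10 closed (8.77%) of 114 regions, against 4.68% and 10.4% of all regions. Itgae, which encodes the CD103 integrin chain of tissue-resident T cells, had 2 opened and 1 closed of 11 regions. The closed Itgae region had the smallest p, at 0.98, 0.37 and 0.56 log2 CPM with SMARTA cells and 2.28, 2.23 and 2.20 without (chr11:73109939-73110339, -1.63 ± 0.22, edgeR adjusted p = 0.00115). The opened Itgae regions numbered 1, 4 and 2 without replicates 1, 2 and 3 with SMARTA cells, and 2, 1 and 1 without those of the other group.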

How the data were processed

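ATAC-seq was available for 6 libraries, 3 with and 3 without SMARTA cells. The authors deposited whole-number read counts per region in a shared list and a peak list per library on GRCm38. Tools listed, without settings, in the submitters' processing notes were DiffBind 3.4.11, the aligner BWA 0.7.17, MACS2 2.1.1 for peaks, and both Picard 2.18.9 and SAMtools 1.8, so it is not known here whether reads were shifted for the transposase. The deposited peak lists also hold a score, a fold enrichment, and a −log10 p-value and q-value per peak, which are the authors' own. Peaks were used here as present or absent in a region.

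Counts were normalised by TMM and tested with edgeR 4.0.16 (quasi-likelihood) in R 4.3.3. The edgeR filter on low counts removed 0 regions, p-values were adjusted over all 74686 regions, and gene sums were fitted over 15962 genes. Fold changes are log2, with minus without SMARTA cells. Levels are log2 CPM with a prior count of 2, and depth bounds the precision of weak regions. Alternatives were DESeq2 1.42.0, total-count and loess scaling, a mean of at least 30 counts, a replicate block, other region assignments and each library left out. Correlations of same-numbered deviations were -0.02, -0.0776 and 0.0764, within the range of differently numbered pairs (-0.107 to 0.0858). The labels do not say whether a replicate number marks a shared animal or day, so pairing is unknown.

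Genes came from RefSeq's GRCm38.p6 table. Named for each gene were the region with the smallest p, the most accessible one and those within 2 kb of its start or, with no strand, of a boundary. Named from the pathway list were genes with at least 3 calls in a direction or at least 30% of 5 or more regions called, and Tgfb1, Smad4 and Itgae. A gene that this rule names is not reported here. The likest genes are the 5 with the highest Pearson r. The members and lists were chosen with earlier results of these data known.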

Additional observations from a re-analysis of the deposited data

How the results depend on the processing

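Leaving out 1 library in turn gave 8 to 28 opened and 4 to 13 closed regions of the 164, and 3 to 21 opened regions of the pathway list. Restricted to gene bodies, 15 opened and 4 closed regions of 99 were left. With neighbours taken within 20 kb, 20 opened and 6 closed regions of 127 were left. The closed regions beyond 20 kb lie 91.3 and 99.1 kb from Tgfbr2, 45.7 kb from Smad2, and 33.1 and 34.3 kb from Tgif1. A replicate block gave 21 opened and 10 closed regions, DESeq2 24 and 11, total-count scaling 21 and 11, loess scaling 24 and 9, and a mean of at least 30 counts 21 and 10. A few small differences that passed no test changed sign, and the cause was not tested. The Tgfbr2 sum was 0.022 without replicate 2 with SMARTA cells (range with 1 library left out -0.19 to 0.022) and the Skil sum was -0.32 inside the gene body alone. Under loess scaling the most accessible regions of Tgfbr2, Smad2 and Tgif1 had log2 folds of -0.015, -0.13 and -0.032. With 1 library left out, the most accessible Tgif1 region ranged from -0.012 to 0.16 and the region at its outermost start from -0.045 to 0.22. Ski, whose summed counts missed the threshold, passed with DESeq2 (adjusted p = 0.000367), total-count scaling (0.0417) and loess scaling (0.0345). Weak regions are limited by depth, and 3 libraries a group limit every count of calls.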
